A study of Rattus norvegicus with 18 samples.

Results

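Hippocampal RNA from rats with kainic acid seizures was compared directly with hippocampal RNA from rats with kindled seizures, without reference to the shams. The comparison was formed by sample title and holds 7 of the 18 libraries of the series: 3 of the kainic acid group (labelled KA 3 Class V) and 4 of the kindled group (labelled KI 3 Class V). The tissue was left hippocampus, taken 24 hours after the last seizure, and the animals were adult males of the Sprague-Dawley stock. The kainic acid rats had electrodes implanted and then received systemic kainic acid in rising doses until status epilepticus developed. The kindled rats had electrodes in the hippocampus and were stimulated there 2 times a day until they were fully kindled. What the title part "3 Class V" counts is not explained in the labels. Sham libraries of each model (KA sham, n = 7, and KI sham, n = 4) do not enter the direct comparison. They serve as background levels, in an alternative fit with all 18 libraries, and in comparisons of the sham groups and of the changes from sham. The groups differ in how seizures were brought about, by systemic kainic acid or by repeated stimulation of the hippocampus, and the parts of these procedures cannot be told apart. No label ties each library to an animal of its own, so the p-values measure the spread between these libraries, which may be partly technical.

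Kainic acid is an agonist of ionotropic glutamate receptors and causes a prolonged status epilepticus that is known for neuronal injury in the hippocampus, with activation of microglia and astrocytes. Kindling builds up full seizures from brief repeated stimulations and is known for little cell loss. Microglia are the resident macrophages of the brain, and when activated they can display peptides on major histocompatibility complex (MHC) class II proteins. A class II protein is a pair of an alpha and a beta chain that assembles on the invariant chain Cd74, and transcription of the whole set is known to need the coactivator Ciita acting at shared promoter elements.

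Because the class II genes showed the largest differences of any gene list examined, promoter windows of 3 of them are shown with a pair of motifs that they share. Capitals mark GCAAC followed after 27 or 28 bases by ATTGG, and each window runs 5′ to 3′ on the strand of the gene, from 120 to 21 bases before the RefSeq start (assembly GRCr8): RT1-Ba at chr20:4576937-4577036 on the plus strand, RT1-Da at chr20:4515295-4515394 on the plus strand and RT1-Db1 at chr20:4560183-4560282 on the minus strand.
RT1-Ba: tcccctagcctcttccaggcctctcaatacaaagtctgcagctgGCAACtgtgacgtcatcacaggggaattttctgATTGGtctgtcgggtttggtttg
RT1-Da: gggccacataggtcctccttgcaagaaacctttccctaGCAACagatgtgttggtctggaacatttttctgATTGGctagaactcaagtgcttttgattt
RT1-Db1: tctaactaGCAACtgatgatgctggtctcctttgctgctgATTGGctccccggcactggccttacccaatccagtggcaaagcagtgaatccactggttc
The reference held a promoter for 9 of the 11 class II genes listed. GCAAC followed by ATTGG after 20 to 30 bases, searched on both strands, was found in 6 of them. These were RT1-Ba, RT1-Da, RT1-Db1, RT1-Db2, RT1-DOa and RT1-DOb, and not Cd74, RT1-DMa or RT1-Bb. RT1-DOa had too few counts to be tested and RT1-DOb was not called, while Cd74 and RT1-DMa were called. The pair therefore did not mark the called genes as a set. The same pair was in 155 of all 33469 promoters of 300 bases (0.463%). The motifs and their spacing were chosen after the sequences had been seen, so the match is a description and gives no evidence of binding.

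The 7 libraries held 36117956 to 49943021 counts each. Of 13066 genes tested, 3247 (24.9%) were called at an adjusted p under 0.05, which means that differences between the groups were widespread: 1711 genes (13.1%) were higher after kainic acid and 1536 (11.8%) were lower. The higher genes moved farther, since 507 of them and 39 of the lower ones differed by at least 2-fold. The median difference was 0.62 on the log2 scale among the higher genes and -0.43 among the lower ones, against 0.003 over all genes. All KA libraries lay above all KI libraries in 16.6% of the genes tested and below them in 18.2%. Compared in the same way by edgeR, the sham groups of the 2 models had 1 call among 13115 genes (0.00762%). In that test 187 genes were higher and 331 lower in KA sham at an unadjusted p under 0.05. The shams varied more than the seizure libraries, so the low count of calls does not show that the sham groups were alike.

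**Figure D1:**
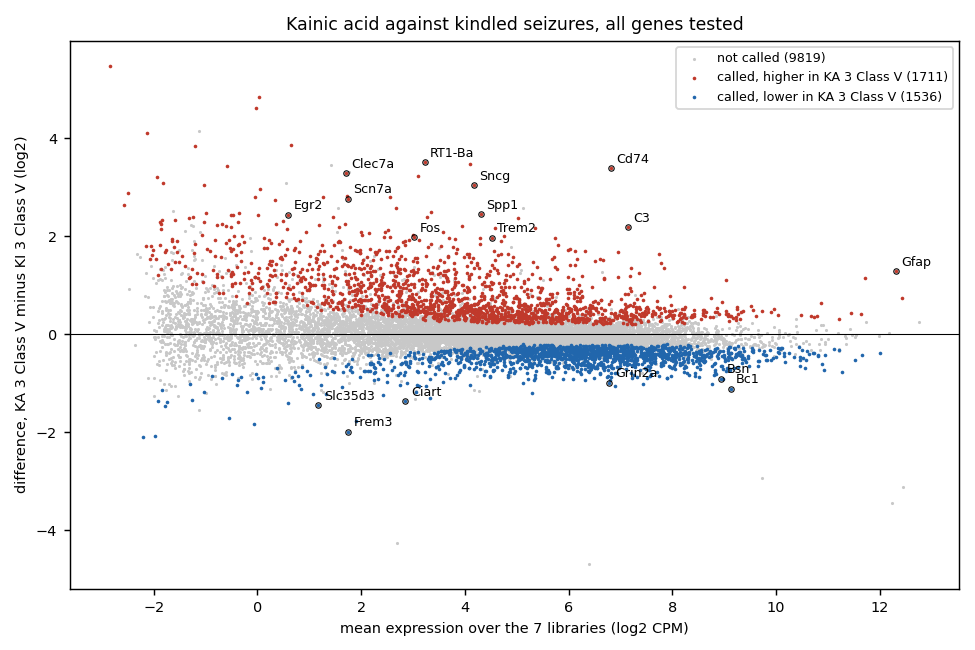
Difference between the groups (y axis, log2, KA 3 Class V minus KI 3 Class V) for each of the 13066 genes tested. The x axis is the mean expression over the 7 libraries in log2 CPM (counts scaled to the library total and a normalization factor). Red and blue points are the 1711 higher and 1536 lower genes called; grey points are not called, and the circled genes are named in the text. Red points reach farther from 0 than blue points.

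Limits of these calls bear on every gene group. The 11 shams varied more than the 7 seizure libraries, and when all 18 libraries entered 1 fit, so that their spread was shared, 323 of the 1711 higher genes and 47 of the 1536 lower genes were still called. For each gene list with calls, the number kept in that fit is given below. Counts of calls in a list are to be read beside the 13.1% of all genes called higher and the 11.8% called lower. Neither seizure group lay wholly outside the range of the shams in 1462 (85.4%) of the higher and 1376 (89.6%) of the lower genes. Over all genes tested this share was 95.1%. KA library 3 stood apart from the other KA libraries on the second principal component, and 16.3% of the counts of KI library 1 fell on 7 ribosomal RNA-like genes, against 0.571% to 1.0% in the other 6 libraries. Without both of these libraries 921 genes were higher and 382 lower. Without KI library 1 alone the counts were 1078 and 625, without KI library 3 they were 1147 and 498, and without KA library 1 they were 1496 and 987. In bulk tissue a lower share of a cell type and less RNA per cell of that type cannot be told apart.

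MHC class II genes were higher after kainic acid, by 10.5-fold for Cd74 and 11.4-fold for RT1-Ba. Of the 9 class II genes tested, 8 were called higher and none lower, with a median log2 difference of 3.23 against 0.003 over all genes. Levels are given in CPM (counts scaled to the library total and a normalization factor). Cd74, the invariant chain, was at 367, 515 and 396 CPM in the KA libraries. In the KI libraries it was at 42.0, 48.3, 36.8 and 37.2 CPM. Every KA library was also above all 11 shams, whose highest value was 118 CPM, and the log2 difference between the seizure groups was 3.39 ± 0.15 (SE, n = 3 and 4, adjusted p = 3.87e-06). RT1-Ba, the alpha chain of the RT1-B molecule, was at 28.2, 44.5 and 38.8 CPM against 3.09, 3.73, 2.79 and 3.52 CPM, a log2 difference of 3.51 ± 0.17 and the largest rise among genes with a mean of at least 1 log2 CPM.

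The other chains that were tested followed the same order of groups, with no overlap. RT1-Bb, the beta chain gene of RT1-B, did not pass the filter on low counts. It was at 0 CPM in all 7 seizure libraries and at 3.74 CPM in KI sham library 3. RT1-Da, the alpha chain of RT1-D, was at 54.9, 74.5 and 76.8 CPM against 5.80, 8.87, 4.42 and 5.67 CPM. RT1-Db1, its beta chain, differed by 3.23 ± 0.14 on the log2 scale. RT1-Db2, a further beta chain gene, was at 2.32 to 2.79 CPM against 0.0630 to 0.402 CPM (log2 difference 3.44 ± 0.36). In RT1-Da, RT1-Db1 and RT1-Db2, too, the lowest KA library was above the highest sham. RT1 genes are near-identical copies of each other, and how the authors counted reads that fit more than 1 of them is not given in the sources used here, so the division of counts among the chains is uncertain.

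Ciita, the coactivator of class II transcription, was at 2.09, 3.72 and 3.74 CPM in the KA libraries and at 0.283, 0.351, 0.535 and 0.449 CPM in the KI libraries. Its log2 difference was 2.97 ± 0.28, and both groups overlapped the shams, which ran from 0.415 to 2.21 CPM. The peptide-loading genes differed less: RT1-DMb by 1.33 ± 0.13 and RT1-DMa by 0.56 ± 0.15 on the log2 scale. For both DM genes the KI libraries were below all 11 shams while the KA libraries were not above them. RT1-DMb lost its call with all 18 libraries in the fit (adjusted p = 0.0661), as did RT1-DMa (0.238), while Cd74, RT1-Ba, RT1-Da, RT1-Db1, RT1-Db2 and Ciita kept theirs. The call of RT1-DMa was also lost without KI library 1 (adjusted p = 0.0781), KI library 2 (0.0573) or KI library 3 (0.0573), and its log2 difference was 0.34 without KA library 3.

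Of 18 MHC class I and immunoproteasome genes tested, 12 were called higher and none lower (median log2 difference 0.86). B2m, the light chain of class I, was at 499, 583 and 616 CPM against 330, 372, 325 and 348 CPM. Psmb8 and Psmb9, catalytic subunits of the immunoproteasome, differed by 1.33 ± 0.14 and 1.30 ± 0.16 on the log2 scale. The KI libraries were below all 11 shams for both subunits, and the KA libraries were within the sham range for B2m, Psmb8 and Psmb9. With all 18 libraries in the fit 1 of the 12 class I calls was kept, and the adjusted p was 0.0505 for Psmb8, 0.156 for Psmb9 and 0.234 for B2m.

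**Figure D2:**
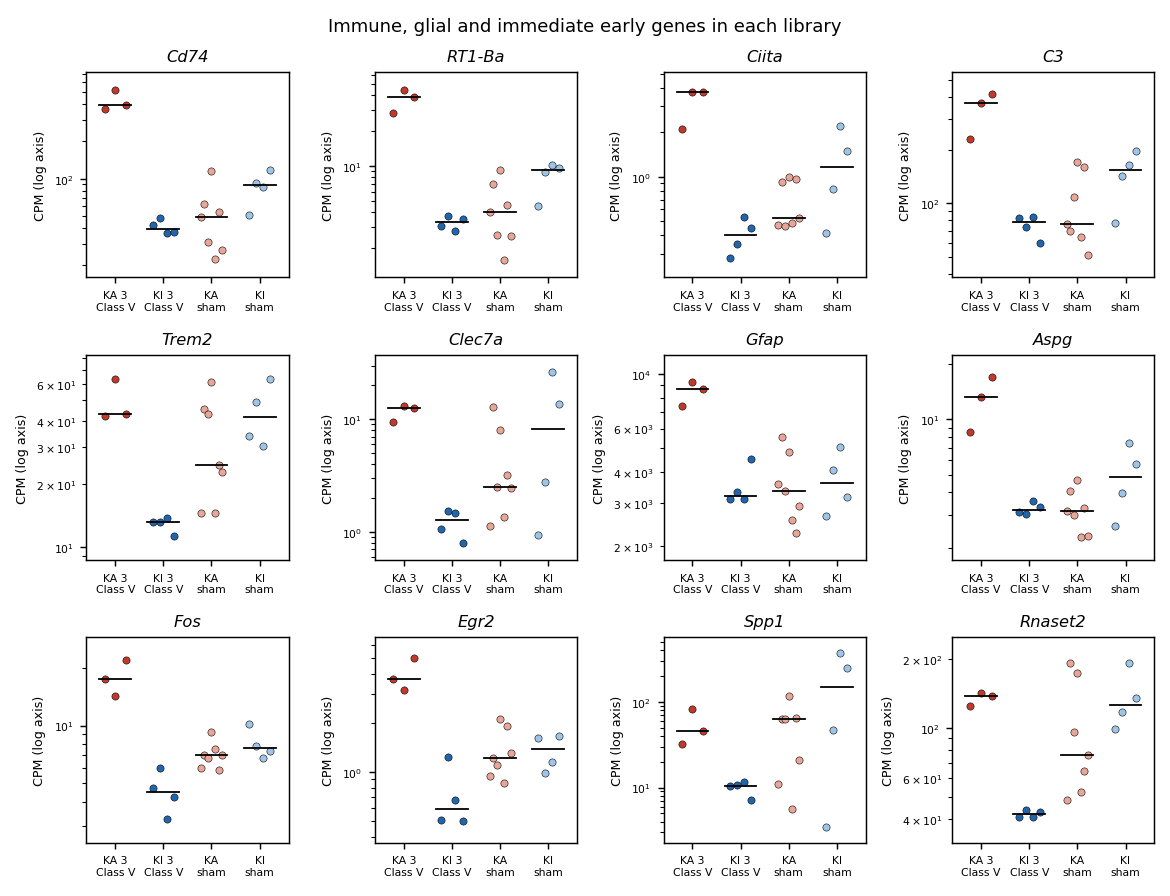
CPM (y axis, log scale) of 12 genes in each of the 18 libraries, by group (x axis); each point is 1 library and each bar the median of its group. In Cd74, RT1-Ba, C3, Gfap, Aspg, Fos and Egr2 the KA 3 Class V libraries lie above every other library, whereas in Trem2 and Rnaset2 the KI 3 Class V libraries lie below every other library.

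Complement and phagocyte genes were higher as well. Of 18 complement genes tested, 15 were called higher and none lower (median 1.29). C3, the component on which the complement pathways converge, was at 232, 370 and 414 CPM against 82.6, 73.8, 84.2 and 59.5 CPM (log2 difference 2.19 ± 0.19). Serping1, the inhibitor of the first complement component, was at 100.4, 104 and 144 CPM against 35.3, 31.6, 33.2 and 20.5 CPM, and for both genes every KA library was above all shams. The fit to all 18 libraries kept 4 of the 15 calls, among them C3 and Serping1.

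Markers of microglia in their resting state were higher in 15 of 17 cases and markers of activated microglia and macrophages in 20 of 21, with medians of 0.98 and 1.52. None of the 38 was called lower. Trem2, a lipid-sensing receptor of microglia, was at 42.3, 63.2 and 43.0 CPM in the KA libraries and at 13.1, 13.1, 13.7 and 11.3 CPM in the KI libraries (log2 difference 1.97 ± 0.15). Its shams ranged from 14.5 to 63.1 CPM, so that the KI libraries lay below all shams, and the highest KA library was level with the highest sham. Tyrobp, the signalling adaptor of Trem2, showed KI libraries at 14.4 to 15.2 CPM below the lowest sham at 16.6 CPM and KA libraries within the sham range. Tmem119, a marker of resident microglia, also had all KI libraries below all shams and differed by 0.86 ± 0.13.

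Csf1r, the receptor for the growth factor on which microglia depend, differed by 1.36 ± 0.12 and Selplg, a further marker of resident microglia, by 0.96 ± 0.09. For Selplg the KA libraries, at 118 to 138 CPM, were above all shams. Among activated genes Clec7a, a receptor for fungal glucans that activated microglia express, was at 9.40, 13.2 and 12.7 CPM against 1.07, 1.53, 1.46 and 0.803 CPM. Its log2 difference of 3.29 ± 0.22 stood beside sham values that ran from 0.934 to 26.2 CPM. The Fc receptor Fcgr2b differed by 2.40 ± 0.13, the lysosomal protein gene Cd68 by 2.49 ± 0.22, Gpnmb by 1.74 ± 0.11 and the secreted phosphoprotein gene Spp1 by 2.45 ± 0.32. In the fit to all 18 libraries 8 of the 15 resting and 7 of the 20 activated calls were kept. Trem2, Tyrobp, Tmem119, Csf1r, Selplg and Fcgr2b were among them, and Clec7a (adjusted p = 0.0588), Cd68 (0.0588), Gpnmb (0.116) and Spp1 (0.215) were not.

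Markers of blood leukocytes moved in the same direction. Of 14 monocyte, neutrophil and lymphocyte markers tested, 8 were called higher and none lower (median 1.15), and the summed level of the list was 236 to 386 CPM in the KA libraries, 124 to 134 CPM in the KI libraries and 111 to 558 CPM in the shams. Ptprc, the leukocyte common antigen, which microglia also express, differed by 1.79 ± 0.16, and Cd4, which is carried by T cells and by rat macrophages, by 1.97 ± 0.12. Both kept their call with all 18 libraries, as 2 of the 8. The B cell gene Ms4a1 and the T cell gene Cd3d did not pass the filter on low counts. The part of blood cells in the differences was not tested.

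Among 24 chemokine, cytokine and receptor genes 12 were called higher and none lower (median 1.12). Tgfb1, a cytokine of microglia, was at 38.3, 60.9 and 48.7 CPM against 17.5, 15.3, 15.3 and 15.7 CPM. Tnfrsf1a, a receptor for tumour necrosis factor, differed by 1.05 ± 0.11 and the interleukin gene Il1b by 1.74 ± 0.31. The monocyte-attracting chemokine Ccl2 was at 2.31, 1.31 and 23.8 CPM against 0.378, 0.301, 0.169 and 0.402 CPM, which gave a log2 difference of 4.84 ± 1.22 (adjusted p = 0.0352). Without KA library 3 that difference was 2.53 (adjusted p = 0.00149), and without any 1 of the 4 KI libraries the call was lost (adjusted p 0.0612 to 0.116), as it was with the replicate block. Tgfb1 and Tnfrsf1a kept their calls with all 18 libraries, as 2 of the 3 that were kept, and Il1b (adjusted p = 0.228) and Ccl2 (0.0757) did not.

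Of 25 interferon response genes 12 were called higher and none lower (median 0.77). The transcription factor gene Irf8, which macrophages also need to develop, was at 25.7, 43.8 and 41.1 CPM against 6.36, 8.16, 8.22 and 9.45 CPM. Bst2, which tethers virus particles, differed by 1.26 ± 0.17. Irf8 was the 1 interferon gene that kept its call with all 18 libraries, and the adjusted p of Bst2 was 0.112. The list had 8 calls without KA library 2, KA library 3, KI library 1 or KI library 3. It had 9 without KI library 4, 14 without KA library 1 and 20 without KI library 2.

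Further genes with large rises were chosen by rule from all genes. Sncg, which encodes gamma-synuclein, was at 36.0, 52.4 and 97.9 CPM against 6.90, 8.94, 5.72 and 8.69 CPM, while its shams ran from 8.40 to 97.9 CPM. Olr1, a receptor for oxidised lipoprotein, differed by 2.83 ± 0.27, the membrane serine protease St14 by 2.80 ± 0.23 and the calcium-activated potassium channel Kcnn4 by 2.80 ± 0.25. The cytokine receptor chain Csf2rb differed by 2.57 ± 0.24 and was the 1 of these 5 to lose its call with all 18 libraries (adjusted p = 0.0647). Scn7a, a sodium channel gene that is known as a salt sensor in glia, was at 4.40, 8.49 and 18.4 CPM against 1.44 to 1.70 CPM, with every KA library above all shams. Its log2 difference was 2.77 ± 0.42, and 2.11 without KA library 3.

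**Figure D3:**
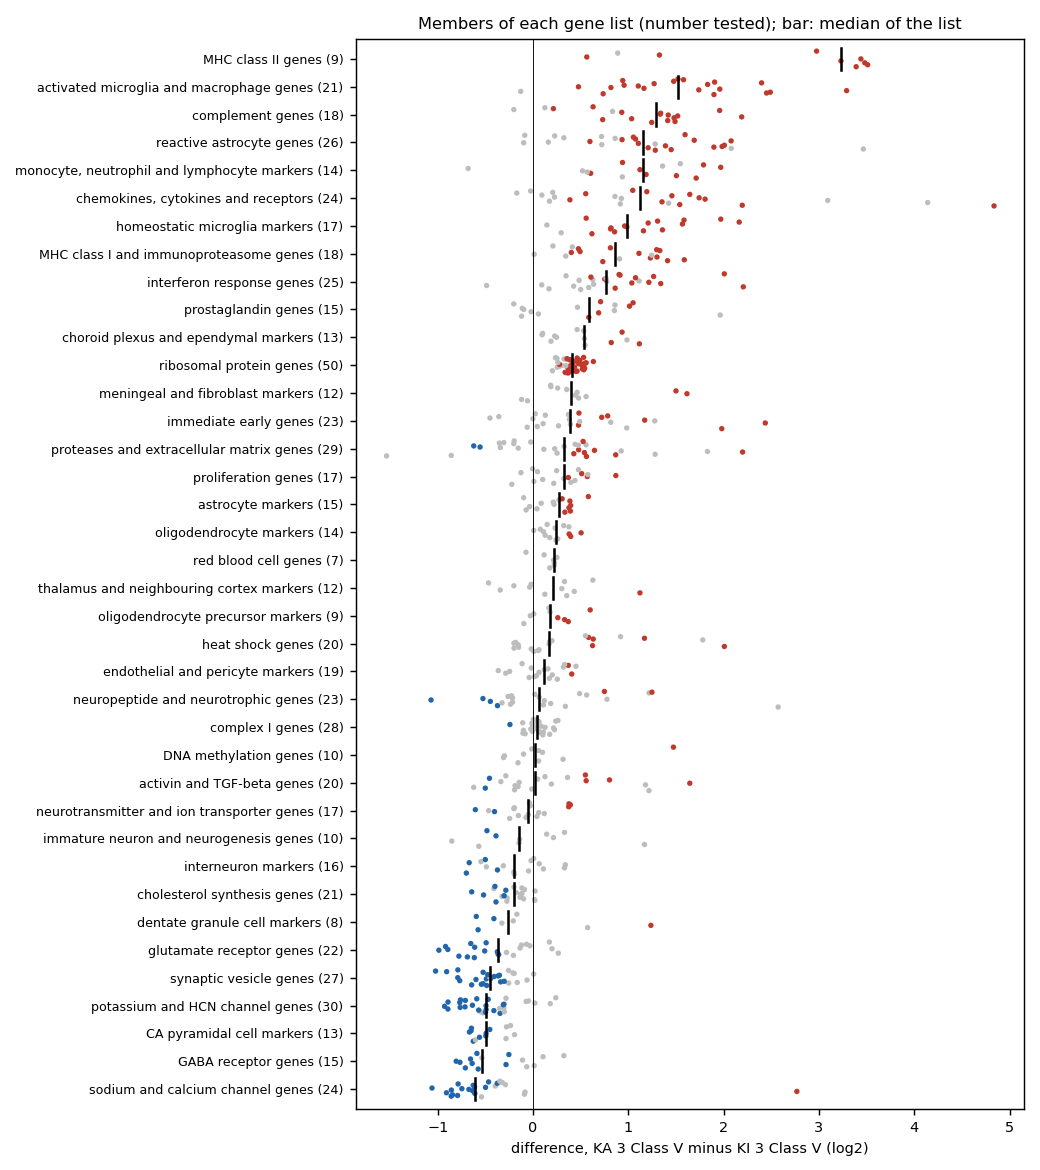
Log2 difference (x axis, KA 3 Class V minus KI 3 Class V) of each tested member of 38 gene lists (y axis, number tested in brackets). Each point is 1 gene, red where called higher, blue where called lower and grey where not called, and the black bar is the median of the list. MHC class II genes (median 3.23) stand at the top and sodium and calcium channel genes (median -0.61) at the bottom.

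Genes of reactive astrocytes, the state that astrocytes enter after injury, were higher in 15 of 26 cases and lower in none (median 1.16). Gfap, the intermediate filament of astrocytes, was at 7391, 9278 and 8669 CPM against 3114, 3302, 3101 and 4499 CPM (log2 difference 1.28 ± 0.15). Aspg, an asparaginase gene used as an astrocyte reactivity marker, was at 8.51, 13.1 and 16.9 CPM against 3.06 to 3.58 CPM. S1pr3, a receptor for sphingosine-1-phosphate, was at 37.6, 55.2 and 74.9 CPM against 19.7, 20.6, 19.8 and 25.6 CPM. In Gfap, Aspg and S1pr3 every KA library was above all 11 shams. Stat3, a transcription factor of the reactive state, shared this position and differed by 0.60 ± 0.10.

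Filament and matrix genes of the same list also differed: Vim by 1.45 ± 0.18 and the hyaluronan receptor Cd44 by 1.21 ± 0.16. Osmr, the receptor for oncostatin M, differed by 1.90 ± 0.29, the transporter gene Slc10a6 by 1.59 ± 0.19, the glycosyltransferase gene Ggta1 by 0.93 ± 0.13 and the interferon-induced GTPase Gbp2 by 1.07 ± 0.20. Socs3, a feedback inhibitor of cytokine signalling, was at 2.46, 3.16 and 7.68 CPM against 0.726 to 1.32 CPM, a log2 difference of 2.08 that was 1.45 without KA library 3.

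The small heat shock protein gene Hspb1 was at 33.1, 47.1 and 112 CPM against 14, 12.2, 15.3 and 22.3 CPM. Its log2 difference of 2.01 was 1.36 without KA library 3, and its call was lost without KI library 1 (adjusted p = 0.0709) or KI library 3 (0.0768). Cd14, a co-receptor for lipopolysaccharide, was at 2.24, 3.22 and 8.74 CPM against 1.33 to 1.80 CPM. Its log2 difference of 1.69 was 0.93 without KA library 3, and its adjusted p was 0.0542, 0.0514 and 0.068 without KI library 1, 2 and 3. Cp, which encodes the copper protein ceruloplasmin, differed by 1.10 ± 0.28, or 0.71 without KA library 3, and lost its call without KI library 1 (adjusted p = 0.0798) or KI library 3 (0.0748). Sphk1, a sphingosine kinase gene, was at 0.729 to 1.31 CPM against 0.354 to 0.693 CPM and was called in 2 of the 7 fits that left out 1 library, those without KA library 2 and without KI library 1 (adjusted p 0.055 to 0.0856 in the other 5).

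With all 18 libraries in the fit 6 of the 15 reactive astrocyte calls were kept: Gfap, Aspg, S1pr3, Vim, Slc10a6 and Hspb1. The adjusted p of the other 9 ran from 0.0535 for Cd44 and 0.0537 for Stat3 to 0.338 for Gbp2. Lcn2, a lipocalin gene induced in injured brain, was not called, with 1.94, 1.55 and 48.1 CPM in the KA libraries and 1.33 to 1.76 CPM in the KI libraries.

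Of 15 general astrocyte markers 7 were called higher and none lower, with a median of 0.27. Mlc1, a membrane protein of astrocyte endfeet, was at 854, 939 and 923 CPM against 574, 609, 622 and 642 CPM, above all shams in the KA libraries (log2 difference 0.58 ± 0.08). The fit to all 18 libraries kept 0 of the 7 calls (Mlc1 adjusted p = 0.0675). The list had 1 call without KI library 1, 2 without KA library 2 or KI library 3, 3 without KA library 1, and 4 without KI library 2.

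Immediate early genes, which neurons induce within minutes of strong activity, were higher after kainic acid in 7 of 23 cases and lower in none (median 0.39, against 0.003 over all genes). Fos, a subunit of the AP-1 transcription factor, was at 17.5, 14.2 and 21.9 CPM in the KA libraries and at 4.72, 5.99, 3.24 and 4.25 CPM in the KI libraries. Egr2, a zinc finger transcription factor, was at 3.72, 3.16 and 4.98 CPM against 0.504, 1.23, 0.676 and 0.496 CPM. The KA libraries were above all 11 shams for both genes, which reached 10.2 CPM for Fos and 2.10 CPM for Egr2. The log2 differences were 1.98 ± 0.20 for Fos and 2.44 ± 0.31 for Egr2.

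Junb, a partner of Fos, differed by 0.48 ± 0.09 and Btg2, an antiproliferative gene, by 0.48 ± 0.11. For Ier2 the KI libraries, at 10.6 to 14.5 CPM, were below all shams, and the difference was 0.72 ± 0.14. Dusp1, a phosphatase that ends MAP kinase signalling, differed by 0.78 ± 0.18 and lost its call without KI library 1 (adjusted p = 0.0586). The neuronal transcription factor gene Npas4 differed by 1.17 ± 0.30 and lost its call without KI library 1 (adjusted p = 0.0637) or KI library 3 (0.0611). Fos, Egr2 and Ier2 kept their calls with all 18 libraries, and the adjusted p of the other 4 genes ran from 0.127 for Junb to 0.186 for Btg2.

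Ion channel and receptor genes of neurons were lower after kainic acid than after kindling. Of 24 sodium and calcium channel genes 16 were called lower and 1, Scn7a, higher (median -0.61). Of 30 potassium and HCN channel genes 19 were lower, of 15 GABA receptor genes 9 and of 22 glutamate receptor genes 13, with medians of -0.49, -0.54 and -0.37 and no gene higher in any of the 3 lists. Over all genes 11.8% were called lower.

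Cacna1e, the pore of the R-type calcium channel, was at 69.0, 91.7 and 72.3 CPM in the KA libraries and at 196, 135, 181 and 143 CPM in the KI libraries (log2 difference -1.06 ± 0.15). The groups did not overlap, and the shams, from 12.3 to 147 CPM, spanned the KA libraries and the lower 2 of the KI libraries. Cacna1h, a low-voltage-activated calcium channel, differed by -0.61 ± 0.09 and the sodium channel beta subunit Scn3b by -0.91 ± 0.14. Among potassium channels Kcnq3, a subunit of the M current that limits repetitive firing, was at 83.9, 84.3 and 60.2 CPM against 162, 140, 152 and 133 CPM, with all KI libraries above all shams. Kcnj6, a channel opened by G proteins, differed by -0.89 ± 0.13 and the modulatory subunit Kcnv1 by -0.76 ± 0.10.

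Grin2a, a subunit of the NMDA receptor, was at 67.5, 83.1 and 71.3 CPM in the KA libraries and at 175, 125, 163 and 131 CPM in the KI libraries (log2 difference -0.99 ± 0.13). Its shams ran from 10.6 to 140 CPM. The NMDA receptor subunit Grin2b differed by -0.89 ± 0.13 and the AMPA receptor subunit Gria3 by -0.78 ± 0.14. Gabra2, a subunit of the GABA-A receptor, differed by -0.71 ± 0.12, with the KI libraries at 144 to 188 CPM above all shams, which reached 131 CPM.

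**Figure D4:**
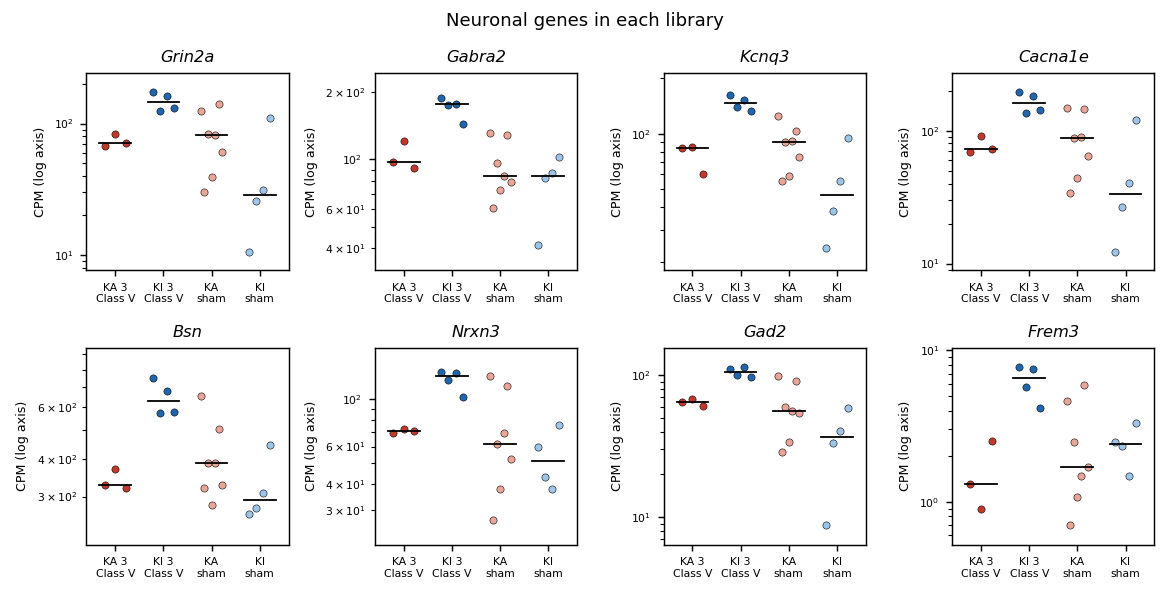
CPM (y axis, log scale) of 8 neuronal genes in each of the 18 libraries, by group (x axis); points are libraries and bars are group medians. KA 3 Class V and KI 3 Class V do not overlap in any of the 8 genes, and the KA 3 Class V libraries lie within the range of the shams.

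Synaptic and cell type genes of neurons showed the same direction. Of 27 synaptic vesicle genes 19 were called lower and none higher (median -0.46). The presynaptic scaffold gene Bsn was at 328, 370 and 320 CPM against 750, 573, 676 and 576 CPM. Its relative Pclo differed by -1.02 ± 0.17 and the adhesion gene Nrxn3 by -0.79 ± 0.10. Of 13 markers of CA pyramidal cells 8 were lower, of 16 interneuron markers 4 and of 8 dentate granule cell markers 3, with 1 granule cell marker, Plk5, higher. The interneuron enzyme Gad2, which makes GABA, was at 64.7, 68.0 and 60.7 CPM against 111, 100.4, 115 and 97.1 CPM. Cnr1, the cannabinoid receptor, differed by -0.67 ± 0.10, the pyramidal cell factor Neurod6 by -0.63 ± 0.12 and the vesicular glutamate transporter gene Slc17a7 by -0.61 ± 0.11. Plk5 was at 6.0, 3.61 and 6.16 CPM against 2.43, 2.63, 2.45 and 1.49 CPM, and the KI libraries were below all shams.

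Few of these neuronal calls were kept when the shams shared the fit. With all 18 libraries in the fit 1 of the 19 potassium channel calls was kept, that of Kcnv1, and 0 of the lower calls in the sodium and calcium channel, GABA receptor, glutamate receptor, synaptic vesicle, pyramidal cell, granule cell and interneuron lists. Among the neuronal genes named in these lists the adjusted p in that fit ran from 0.0504 for Neurod6 and 0.056 for Bsn to 0.387 for Grin2a and 0.429 for Gad2, apart from Kcnv1 (0.0258). The granule cell gene Plk5 had 0.149 there. Without KI library 3 there were 5 glutamate receptor calls, 5 GABA receptor calls, 12 potassium channel calls and 7 synaptic vesicle calls, and without KI library 1 there were 5 glutamate receptor, 12 potassium channel and 11 synaptic vesicle calls. Glutamate receptor calls also numbered 5 without KA library 1 and 8 without KI library 2, and synaptic vesicle calls 12 without KA library 3. The pyramidal cell list had 2 calls without KI library 1 or KI library 3, 4 without KA library 1 and 5 without KA library 2, and the granule cell list had 1 without KA library 1, KI library 1 or KI library 3 and 2 without KI library 2. Each neuronal gene named here was called without any 1 of the 7 libraries.

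Beside the neuronal differences, the summed level of the pyramidal cell markers was 1867 to 2277 CPM in the KA libraries, 2481 to 3397 CPM in the KI libraries and 2052 to 3212 CPM in the shams. The summed synaptic vesicle genes stood at 8969 to 9700 CPM, 11370 to 14260 CPM and 7754 to 12730 CPM. Summed activated microglia genes, in contrast, were at 9971 to 10790 CPM in the KA libraries, 5704 to 6741 CPM in the KI libraries and 7126 to 12910 CPM in the shams. CPM are relative values, scaled by normalization factors. Whether the higher levels of glial genes have a part in the lower neuronal values was not tested.

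The largest falls among all genes, chosen by the same rule, held several genes of neurons. Frem3, an extracellular matrix gene, was at 1.30, 0.897 and 2.53 CPM against 7.72, 5.69, 7.49 and 4.18 CPM (log2 difference -1.99 ± 0.35). Slc35d3, a nucleotide sugar transporter gene, was at 1.11, 1.55 and 1.06 CPM against 2.61 to 4.61 CPM, and Mei1, a meiosis gene, was at 4.24 to 5.99 CPM, below all 11 shams, against 9.40 to 13.5 CPM. Bc1, a noncoding RNA of dendrites, was at 342, 393 and 334 CPM against 759, 909, 652 and 787 CPM, while its shams reached 2922 CPM. The heparan sulfate enzyme Ndst4 differed by -1.29 ± 0.18, the cadherin Cdh9 by -1.19 ± 0.21, the muscle-type sodium channel Scn4a by -1.23 ± 0.25, the protease Klk11 by -1.23 ± 0.20 and sarcalumenin, Srl, by -1.23 ± 0.23. Ciart, a repressor in the circadian clock, differed by -1.37 ± 0.24. Slc35d3, Ciart and Mei1 kept their calls with all 18 libraries, and the adjusted p of the other 7 ran from 0.0549 for Ndst4 to 0.32 for Bc1.

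Neuropeptides and growth factors did not move as a group: 2 of 23 genes were higher and 4 lower (median 0.06), against 13.1% and 11.8% of all genes. Crh, the corticotropin-releasing hormone, was at 1.89, 2.09 and 1.95 CPM against 4.57, 3.96, 3.38 and 4.91 CPM. Somatostatin, Sst, was at 179, 192 and 191 CPM against 252, 223, 256 and 250 CPM, and Igf1, a growth factor that microglia also make, was higher by 1.25 ± 0.17. None of the 6 calls was kept with all 18 libraries (adjusted p = 0.118 for Crh, 0.475 for Sst and 0.195 for Igf1). The list had 3 calls without KI library 2 or KI library 3.

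Several seizure-regulated transcripts were set by KA library 3. Trh, the thyrotropin-releasing hormone precursor, was at 28.4, 19.4 and 386 CPM in the KA libraries and at 16.1, 23.6, 17.5 and 38.9 CPM in the KI libraries, and was not called (log2 difference 2.57, adjusted p = 0.167, and 0.0072 without KA library 3). Both groups were above the sham medians of 2.11 and 3.13 CPM. Npy, neuropeptide Y, was at 113, 194 and 877 CPM against 286, 327, 313 and 320 CPM. Without KA library 3 Npy was lower after kainic acid, by -0.99 on the log2 scale (adjusted p = 0.00861).

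The activin subunit gene Inhba and the neurotrophin gene Bdnf behaved likewise. Inhba was at 2.34, 2.39 and 20.5 CPM against 3.33 to 4.05 CPM, and without KA library 3 it differed by -0.57 (adjusted p = 0.037). Bdnf was at 36.7, 41.1 and 99.1 CPM against 74.4, 73.1, 75.5 and 54.0 CPM, and without KA library 3 it differed by -0.80 (adjusted p = 0.00407). With all 7 libraries neither was called by edgeR, while Bdnf was called with limma-voom. The direction of Npy and Inhba depended on KA library 3.

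**Figure D5:**
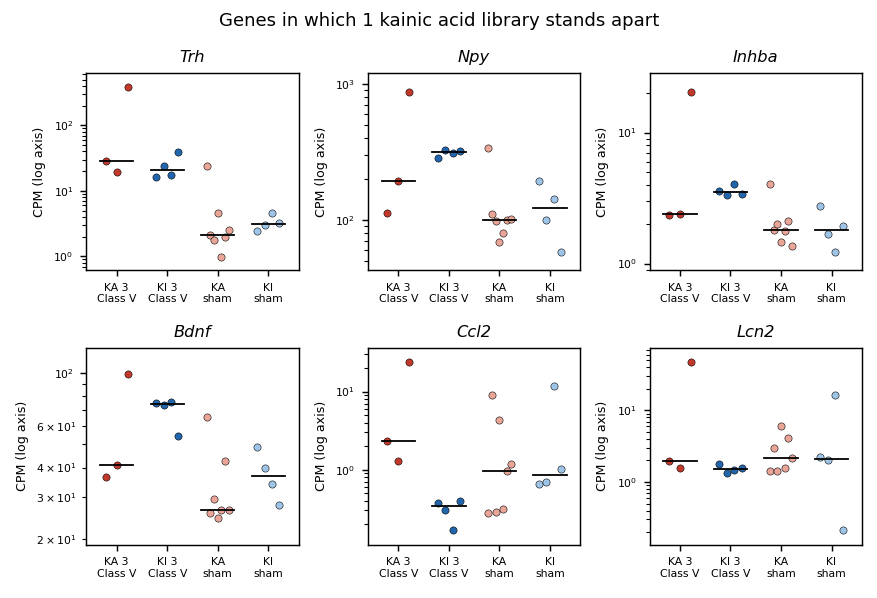
CPM (y axis, log scale) of Trh, Npy, Inhba, Bdnf, Ccl2 and Lcn2 in each of the 18 libraries, by group (x axis); points are libraries and bars are group medians. 1 of the 3 KA 3 Class V points lies far above the other 2 in each gene, such as 386 CPM against 28.4 and 19.4 CPM for Trh.

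Ribosomal protein genes, which encode the protein part of the ribosome, were higher in 40 of 50 cases and lower in none, by small amounts (median 0.41). Rplp0 was at 705, 729 and 795 CPM against 511, 510, 499 and 565 CPM, and Rps12 differed by 0.63 ± 0.10. Of the 40 calls 0 were kept with all 18 libraries, with an adjusted p of 0.337 for Rplp0, and the shams of Rplp0 ran from 530 to 1288 CPM. The list had 20 calls without KI library 1, 23 without KI library 3 and 25 without KA library 3.

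Among 29 protease and matrix genes 8 were higher and 2 lower (median 0.33), against 13.1% and 11.8% of all genes. Plau, the urokinase plasminogen activator, was at 5.61, 8.60 and 6.49 CPM against 1.67, 1.38, 1.44 and 1.61 CPM. Plat, the tissue plasminogen activator, was at 105, 113 and 122 CPM, above all shams, against 72.6 to 86.7 CPM. Mmp14, a membrane metalloproteinase, differed by 0.87 ± 0.12. None of the 10 calls was kept with all 18 libraries (adjusted p = 0.0737 for Plau, 0.0647 for Plat and 0.117 for Mmp14).

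Cholesterol synthesis genes were called lower in 6 of 21 cases and higher in none (median -0.20). Hmgcs1, an early enzyme of the pathway, was at 299, 287 and 272 CPM against 360, 419, 377 and 357 CPM. Hsd17b7, a later enzyme, was at 2.61, 2.41 and 2.37 CPM against 4.16, 3.68, 4.28 and 3.47 CPM, with all KI libraries above all shams. Hsd17b7, as 1 of the 6, kept its call with all 18 libraries (adjusted p = 0.0497) and lost it without KI library 3 (0.0531), and Hmgcs1 lost it with all 18 (0.0574). The list had 1 call without KI library 3, 2 without KA library 2 or KI library 1 and 3 without KI library 2. Of 28 genes of mitochondrial complex I, 1 was called, lower, with a median of 0.05, and not with all 18 libraries. None was called in the fits without KA library 1, 2 or 3 or KI library 1, 2 or 3, while 6 were called without KI library 4.

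Several further lists had calls in both directions or few calls, beside 13.1% of all genes called higher and 11.8% called lower. Of 15 prostaglandin and leukotriene genes 5 were higher and none lower (median 0.58), among them Alox5ap, which activates leukotriene synthesis (log2 difference 1.05 ± 0.16), the prostaglandin receptor Ptger3 (1.01 ± 0.21) and the cyclooxygenase Ptgs1 (0.58 ± 0.13). The inducible cyclooxygenase Ptgs2 was not called, with a log2 difference of -0.12 ± 0.44. Of 20 activin and transforming growth factor beta genes 4 were higher and 2 lower (median 0.02). Next to Tgfb1, the receptor Tgfbr2 differed by 0.80 ± 0.09 and Bmp6, a bone morphogenetic protein gene, by 0.55 ± 0.08, the latter with every KA library above all shams. Of these calls, Tgfb1 alone was kept with all 18 libraries.

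Of 17 proliferation genes 4 were higher and none lower (median 0.32), against 13.1% and 11.8% of all genes. The called genes encode parts of the DNA replication machinery, such as Mcm3 (log2 difference 0.87 ± 0.15) and Mcm2 (0.57 ± 0.12), while Mki67, a marker of dividing cells, was not called, at -0.22 ± 0.29. Of 10 genes of immature neurons none was higher and 2 were lower (median -0.15): Stmn2, a tubulin-binding protein (-0.39 ± 0.08), and Ccnd2, a cyclin (-0.48 ± 0.11), which lost its call without KI library 3 (adjusted p = 0.0581). The immature neuron list had 5 calls without KA library 2 and 1 without KI library 3. Of 10 DNA methylation genes 1 was called, Apobec1, a cytidine deaminase (1.47 ± 0.30), and none of the methyltransferases Dnmt1, Dnmt3a and Dnmt3b was. That list had 2 calls without KA library 1 or KI library 2. None of the 7 calls in these 3 lists was kept with all 18 libraries.

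Of 17 neurotransmitter and ion transporter genes 3 were higher and 2 lower (median -0.05), against 13.1% and 11.8% of all genes. Slc12a5, which exports chloride from neurons, differed by -0.40 ± 0.11 and lost its call without KA library 1 (adjusted p = 0.0691), KI library 1 (0.0731) or KI library 3 (0.0868). Glul, the glutamine synthetase of astrocytes, differed by 0.37 ± 0.09 and lost its call without KA library 2, KA library 3, KI library 1 or KI library 3 (adjusted p 0.054 to 0.0593). The transporter list had 1 call without KI library 1, 2 without KA library 2 or KI library 3 and 3 without KA library 1, and none was kept with all 18 libraries. Of 7 red blood cell genes none was called (median 0.22).

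Markers of other cell types were also counted, against 13.1% of all genes called higher. Of 14 oligodendrocyte markers 3 were higher, of 9 precursor markers 4, of 19 endothelial and pericyte markers 2, of 12 meningeal markers 2 and of 13 choroid plexus markers 3, and none was lower. Cldn11, a tight junction gene of myelin, was at 416, 540 and 449 CPM against 301, 362, 301 and 369 CPM. Its adjusted p was 0.258 with all 18 libraries. That fit kept 0 of the 3 oligodendrocyte, 1 of the 4 precursor, 0 of the 2 endothelial, 0 of the 2 meningeal and 1 of the 3 choroid plexus calls. Of 12 markers of thalamus and neighbouring cortex 1 was called, and not with all 18 libraries, and their summed level was 193 to 221 CPM in the KA libraries and 187 to 201 CPM in the KI libraries. Of 20 heat shock genes 5 were higher, among them Hmox1, the haem-degrading enzyme (log2 difference 1.17 ± 0.19, adjusted p = 0.142 with all 18 libraries), and 1 of the 5 was kept in that fit. Leaving out each of the 7 libraries in turn gave 1 to 4 calls for oligodendrocyte markers, 1 to 4 for precursor markers, 1 to 3 for endothelial markers, 0 to 5 for meningeal markers, 1 to 7 for choroid plexus markers, 1 or 2 for thalamus markers and 3 to 8 for heat shock genes. Each of the 7 libraries moved at least 1 of these counts by over 1.5 times. The lowest count of each list was found without KI library 1 or KI library 3, and the highest without KI library 2 or KI library 4. Leaving out other libraries, KA libraries among them, tied with the lowest oligodendrocyte and choroid plexus counts and the highest endothelial and thalamus counts.

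Each model has its own shams, so the direct difference can be set beside the difference of the 2 changes from sham, which shares the 7 seizure libraries with it and is not independent. In that comparison 507 of 13338 genes (3.8%) were called, 420 (3.15%) toward kainic acid and 87 (0.652%) toward kindling. The class II genes were higher in 7 of 9 cases, with a median of 3.83 on the log2 scale, and activated microglia genes in 13 of 21 (median 2.12). Resting microglia genes had 6 calls of 17, complement genes 8 of 18, reactive astrocyte genes 8 of 26 and immediate early genes 3 of 23. The sham groups differed the other way, without a call, by a median of -0.59 (KA sham minus KI sham) in the class II genes and -0.57 in the activated microglia genes. Neuronal lists had few calls in it: 1 lower of 30 potassium channel genes and 0 lower of 22 glutamate receptor, 15 GABA receptor and 24 sodium and calcium channel genes. For Grin2a the difference of changes was -1.85 ± 0.76 (adjusted p = 0.181) and for Cd74 it was 4.13 ± 0.54 (adjusted p = 0.00158). The counts of this comparison depended on single libraries. Without KA library 3 it had 52 higher and 4 lower calls, and without KA library 2, KI library 1 or KI library 3 it had 141 and 11, 119 and 9, and 121 and 10. Without KI library 2, KI library 4 or KI sham library 3 the counts were 173 and 30, 221 and 43, and 168 and 37. Without KI sham library 1 they were 708 and 189, and without KI sham library 4 they were 446 and 251. The lower count also fell to 39 without KA library 1 and to 37 to 47 without KA sham library 1, 3, 5, 6 or 7, and rose to 174 and 161 without KA sham libraries 2 and 4.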

How the data were processed

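The libraries were made from polyA RNA with a NEBNext Ultra II kit, per the labels. The deposited values are whole-number read counts per gene symbol, 17455 symbols in 18 libraries, that the authors made from their reads. The submitters' processing notes name the rat build rn6 and, without versions, the tools featureCounts, HISAT2, DESeq2, Trimmomatic and FastQC. Annotation, strandedness and how reads matching several genes were handled are not given in the sources used.

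From these counts, genes with too few reads in the 7 libraries were removed (edgeR filterByExpr), TMM factors were computed, and the 3 KA 3 Class V libraries were compared with the 4 KI 3 Class V libraries by edgeR's quasi-likelihood test (edgeR 4.0.16, R 4.3.3), with 5 residual degrees of freedom. Genes with a Benjamini-Hochberg adjusted p under 0.05 over all genes tested were called, and every adjusted p printed without another tool's name is from this test. CPM were scaled by TMM over all 18 libraries, and log2 differences are from the fit to the 7. On simulated counts of 13008 genes for this comparison, the test called 61.2% of 67 genes changed 1.5-fold and 91% of 67 changed 2-fold. It called 100% of 66 changed 4-fold and 16 of 12808 unchanged genes. Far fewer genes were changed in the simulation than were called in the real comparison, so the simulated rates need not hold there. The sham groups, and the difference of the 2 changes from sham, were tested in the same way.

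The 38 gene lists (762 entries, 736 in the table) and the members of the comparison were chosen with earlier results of these data known. Named genes are the 12 largest rises and 12 largest falls among called genes with a mean of at least 1 log2 CPM and no overlap between the groups, up to 3 genes with the smallest p in each list, and the called MHC class II, reactive astrocyte and immediate early genes. Tyrobp, Spp1, Tmem119, Ccl2, Il1b, Lcn2, Trh, Npy, Inhba, Bdnf, Ptgs2 and Mki67 were named after their values were seen. Alternatives were DESeq2 1.42.0, limma-voom (limma 3.58.1), other scalings and filters, all 18 libraries in 1 fit, the replicate number as a block, and each library left out in turn. Library pairs within each group differed by more than sampling noise in a chi-square comparison of counts, so none was merged. Promoters are from RefSeq (GRCr8). Results for a few genes are not reported here.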

Additional observations from a re-analysis of the deposited data

Results flagged for a closer look

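In groups of 4 or 7 libraries, single libraries lay far from the others of their group for 37 of the 393 combinations of a named gene and a group examined, by Dixon's test of the highest or lowest value. Chance alone does this in about 1 in 20 groups. In the KI 3 Class V group this concerned KI library 4 for Gfap at 4499 CPM, S1pr3 at 25.6 CPM, Bdnf at 54 CPM, Cdh9 at 41.3 CPM, Gria3 at 207 CPM, Dbp at 197 CPM, Ctsd at 342 CPM and Glul at 1763 CPM, and KI library 1 for Cd14 at 1.8 CPM.

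Among the KA shams, sham library 1 stood apart for Trh at 23.7 CPM, Npy at 337 CPM, Inhba at 4.03 CPM, Crh at 5.3 CPM, Scn4a at 8.23 CPM, Srl at 3.65 CPM, Gria3 at 234 CPM, Plk5 at 3.18 CPM and Tef at 407 CPM. Trh, Npy and Inhba were also high in KA library 3. KA sham library 2 stood apart for Psmb8 at 28.6 CPM, Bst2 at 29.3 CPM and Bc1 at 2898 CPM, KA sham library 6 for Mei1 at 18.9 CPM, and KA sham library 4 for Cd68 at 31.7 CPM, Cd4 at 32.3 CPM, Cd44 at 29.5 CPM, Igf1 at 18.6 CPM and Plau at 6.77 CPM. Among the KI shams, sham library 3 stood apart for Psmb8 at 43.9 CPM, Psmb9 at 36.7 CPM, Ccl2 at 11.8 CPM, Il1b at 2.16 CPM, Bst2 at 59.5 CPM, Gbp2 at 69.2 CPM and Lcn2 at 16.5 CPM, which are immune and interferon response genes. KI sham library 1 stood apart for Ier2 at 25.1 CPM and Dbp at 258 CPM, and KI sham library 4 for Igf1 at 25.2 CPM. The share of counts on ribosomal RNA-like genes was 16.3% in KI library 1, 9.67% in KA sham library 4 and 16.4% in KI sham library 2, each far above the rest of its group.

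For 58 named genes the change from sham differed between the models by edgeR's test of the difference itself (adjusted p under 0.05). The values are the change after kainic acid minus the change after kindling, on the log2 scale, with 3 and 7 libraries for kainic acid and 4 and 4 for kindling. Among class II and class I genes it was 4.13 for Cd74, 4.38 for RT1-Ba, 4.05 for RT1-Da, 3.81 for RT1-Db1, 3.99 for RT1-Db2, 1.85 for RT1-DMb, 3.83 for Ciita and 2.06 for Psmb8. Complement genes had 2.71 for C3 and 2.32 for Serping1. Microglia and macrophage genes had 2.40 for Trem2, 2.39 for Tyrobp, 1.79 for Csf1r, 1.03 for Tmem119, 2.85 for Fcgr2b, 2.73 for Gpnmb, 4.56 for Clec7a and 3.63 for Cd68. Other immune genes had 2.65 for Cd4, 2.58 for Ptprc, 2.10 for Tgfb1, 1.34 for Tnfrsf1a, 2.79 for Irf8, 2.09 for Bst2, 4.03 for Csf2rb and 2.84 for Cd14. Lysosomal genes had 2.09 for Npc2, 1.55 for Ctsd, 0.85 for Ctsb, 2.69 for Ctsz, 2.11 for Rnaset2, 2.08 for Laptm5, 1.21 for Hexa and 0.82 for Lamp2.

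Reactive astrocyte genes had 1.33 for Gfap, 1.86 for Vim, 2.58 for Aspg, 1.60 for S1pr3, 2.54 for Hspb1, 1.91 for Slc10a6 and 0.78 for Stat3. Immediate early genes had 2.16 for Fos, 2.45 for Egr2 and 0.99 for Ier2. Further genes that moved toward kainic acid were at 3.44 for Olr1, 3.74 for St14, 3.89 for Kcnn4, 3.16 for Scn7a, 3.16 for Plau, 0.98 for Nfil3 and 2.20 for Mt1. The difference pointed toward kindling, with -1.60 for Slc35d3, -1.92 for Ndst4, -1.34 for Mei1, -0.97 for Kcnv1, -1.27 for Bsn, -0.76 for Hmgcs1 and -0.88 for Hsd17b7. These values use the 7 seizure libraries of the direct comparison again and are not independent of it.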

How the results depend on the processing

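The direct comparison gave 1711 higher and 1536 lower genes. With DESeq2 these were 1922 and 1950, with limma-voom 2503 and 2423, and with upper quartile factors 1914 and 1188, a share of 61.7% higher against 52.7%, with a shift of the median of all genes by 0.045 on the log2 scale. With all 18 libraries in the fit they were 329 and 47, and without KI library 1 and KA library 3 together, an alternative chosen after seeing the data, 921 and 382. Leaving out each library in turn gave 1078 to 1969 higher and 498 to 1826 lower genes, and 1042 higher and 490 lower genes were called without each of the 7. RLE factors, both filters and leaving out ribosomal RNA-like genes kept both counts within 1.5 times. Of the 126 called genes that the text names, 126 kept direction and call with DESeq2, 126 with limma-voom, 126 with RLE and 126 with upper quartile factors, 46 with all 18 libraries and 109 without KI library 1 and KA library 3. The cause of these differences was not tested.

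Samples with the same replicate number did not deviate together (r = -0.067, -0.012 and 0.019 for numbers 1, 2 and 3), so the numbers were not taken as pairs. With the replicate block the direct comparison gave 1681 higher and 1508 lower genes, 122 of the 126 named calls were kept, and Ccl2, Cd14, Sphk1 and Dusp1 lost theirs. The block gave 0 sham calls and 165 higher and 8 lower calls in the comparison of changes.

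The sham comparison had 0 higher genes and 1 lower, with DESeq2 3 and 4, and 0 to 1 lower with a library left out. The comparison of changes had 420 and 87, with DESeq2 772 and 345, with KI sham libraries 3 and 4 left out 253 and 398, and with 1 library left out 52 to 708 and 4 to 251.

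Genes that changed direction were not called by edgeR with all 7 libraries. Npy (main log2 difference 0.34) was -0.61 with limma-voom, -0.22 with the block, -1.03 without KI library 1 and KA library 3, and -0.99 to 0.78 with 1 library left out. Inhba (1.22) was -0.17, 0.47, -0.57, and -0.57 to 1.66 in the same order. Trh (2.57) was -0.14 without KI library 1 and KA library 3. Bdnf (-0.23) was -0.80 to 0.018 with 1 library left out, the latter without KA library 1, and it was called with limma-voom. At this depth the self-test recovered fewer of the 1.5-fold than of the 2-fold changes, so that genes with small differences are less completely called.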

Other observations

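A few further gene groups were examined after their values had been seen, so their counts are a description. Of 23 lysosomal genes tested, 20 were called higher after kainic acid and none lower, with a median log2 difference of 0.84, and 11 of the 20 kept their call with all 18 libraries in the fit. Rnaset2, a lysosomal ribonuclease, was at 124, 142 and 138 CPM in the KA libraries and at 40.9, 43.5, 40.8 and 43.0 CPM in the KI libraries (log2 difference 1.69 ± 0.08, edgeR adjusted p = 3.87e-06). Its shams ran from 48.2 to 191 CPM, so the KI libraries were below all of them and the KA libraries among them. Ctsz, a cysteine protease, showed the same order, at 79.0, 125 and 140 CPM against 30.5, 33.2, 32.2 and 33.7 CPM. Npc2, which carries cholesterol out of the lysosome, differed by 1.64 ± 0.10, and Laptm5, a lysosomal membrane protein of blood-derived cells and microglia, by 1.54 ± 0.12. The aspartic protease Ctsd differed by 1.10 ± 0.14 and the hexosaminidase subunit Hexa by 0.84 ± 0.08. Lamp2, a structural protein of the lysosomal membrane, was at 131, 157 and 126 CPM against 87.8, 97.1, 90.1 and 87.3 CPM, above all shams in the KA libraries. The protease Ctsb differed by 0.48 ± 0.08 and lost its call with all 18 libraries (adjusted p = 0.084). Many lysosomal genes are abundant in microglia, and the part of microglia in these values was not tested.

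Circadian clock genes changed in both directions: of 18 tested, 3 were called higher and 6 lower (median -0.18), against 13.1% and 11.8% of all genes. Ciart, a clock repressor, was at 6.05, 3.98 and 2.60 CPM in the KA libraries and at 11.6, 11, 11.5 and 10.1 CPM in the KI libraries. The clock-controlled transcription factor Dbp differed by -0.61 ± 0.12 and its relative Tef by -0.51 ± 0.11, while Nfil3, a repressor that acts on the same promoter elements, was higher by 0.70 ± 0.11 and the core repressor Cry1 by 0.41 ± 0.09. The calls of Ciart and Tef were kept with all 18 libraries. The list had 5 calls without KI library 1 and 6 without KA library 2 or KI library 3. The labels do not give the hour at which tissue was taken, so the hour and the seizure model cannot be told apart.

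The metallothionein genes Mt1 and Mt2A, which encode metal-binding proteins, were higher by 1.24 ± 0.26 and 1.13 ± 0.21, as 2 of 3 such genes tested, and neither kept its call with all 18 libraries. Without KA library 3 the difference of Mt1 was 0.82.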
